A study of Rattus norvegicus with 24 samples.

Results

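The genes described here are 35 complement components, receptors and regulators of complement, picked by name with earlier results of these data known. Of these, 31 were found among the 29539 genes of the deposited count table, and C2, C7, C5ar1 and Cd46 were not analysed here. Among the 31, 23 had enough reads to be tested and 8 fell below the filter on low counts. The libraries are poly(A)-selected RNA-seq of rat brain, with 8 labelled SKF, 8 labelled Vehicle and 8 labelled Normal Control. Rats of the SKF group had a stab wound of the forebrain, a model of traumatic brain injury (TBI). They were given SKF-81297, an agonist of the D1-like dopamine receptors, by the intraperitoneal route each day over 3 days, the earliest dose 1 h after the wound. The Vehicle group is named by that word alone and is read here as wounded rats given the solvent. Normal Control is read as brain without the wound, and the labels do not say whether a sham operation was done. The sources used here give neither strain, sex and age nor brain region and time of sampling. Nor is it stated that each library came from a different rat, so the p-values measure the spread between these libraries, which may be technical.

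Complement is a cascade of proteins that marks microbes, dying cells and synapses for uptake, attracts leukocytes and can pierce membranes. The classical pathway starts when C1q binds its target and its attached proteases C1r and C1s cut C4 and C2. The lectin pathway reaches the same step through the Masp proteases, and the alternative pathway amplifies the reaction through factor B, factor D and properdin. All routes cleave C3, and cleavage of C5 then starts assembly of the membrane attack complex from C6, C7, C8 and C9. In brain, microglia are a main source of C1q, astrocytes make C3 and C4, and the integrin Itgam/Itgb2 (complement receptor 3) on microglia and other myeloid cells takes up material coated with C3 fragments. Most circulating complement is made by the liver.

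The libraries held 8911339 to 12383368 counts. The first principal component, with 54.3% of the variance, placed all 16 SKF and Vehicle libraries apart from the 8 Normal Control libraries. Normal Control 6 lay apart on the second component, and Normal Control 4 carried skeletal muscle transcripts, at up to 1968 counts-per-million (CPM) summed over 4 genes, against a group median of 9.53. Results that moved when both were left out are given beside the values concerned. Neurons and oligodendrocytes were represented in all groups by every marker listed, at levels given below.

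Per transcript length, Clu was the most abundant of these genes in every group, and 5 genes, C1qbp, Cd59 and the C1q chains, came next. Clu encodes clusterin, a secreted chaperone that also blocks the membrane attack complex. It had 893, 1065 and 1161 transcripts-per-million (TPM; lowest, median and highest library) in SKF, 986, 1063 and 1304 TPM in Vehicle and 774, 947 and 1120 TPM in Normal Control. Next by median TPM in Vehicle came C1qbp with 137 TPM, C1qb with 132, Cd59 with 102, C1qc with 88.2 and C1qa with 87.7. In Normal Control the order was Cd59 with 107 TPM, C1qbp with 100.4, C1qa with 51.9, C1qb with 47.9 and C1qc with 27.6. C3, further down the cascade, had a median of 16.4 TPM in SKF, 23.0 in Vehicle and 11.4 in Normal Control. The 3 C1q chains together had a median of 303 TPM in SKF, 306 in Vehicle and 126 in Normal Control. They made up a median of 37.6% of all TPM of the complement genes other than Clu in SKF, 35.1% in Vehicle and 27.8% in Normal Control. At the other end, C5, C6, C8a, C8b and C9 summed to a median of 0.277 TPM in SKF, 0.779 in Vehicle and 0.428 in Normal Control.

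**Figure D1:**
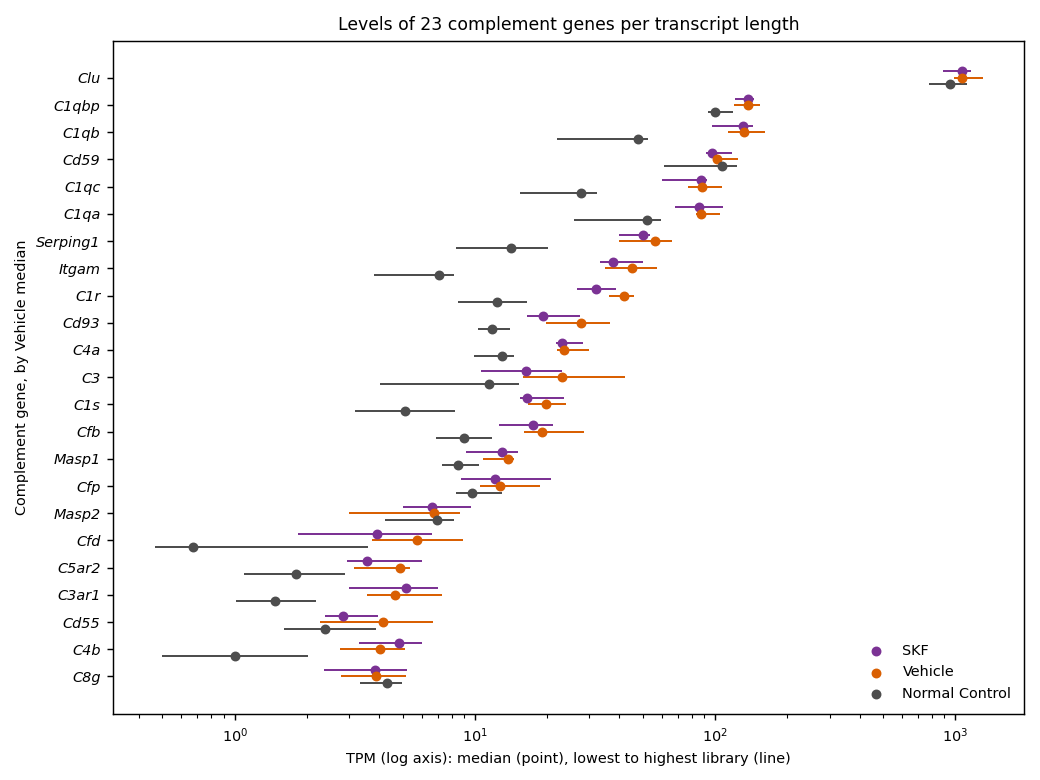
Level of the 23 tested complement genes in TPM on a log axis, for SKF, Vehicle and Normal Control, 8 libraries each; points are medians and lines run from the lowest to the highest library. Clu, with medians of 947 to 1065 TPM, is the highest in every group, while the C1q chains, Serping1 and Itgam separate Normal Control from the other groups.

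Vehicle against Normal Control compares wounded, solvent-treated brain with brain without the wound. The wound, the operation and the solvent cannot be told apart in it. Of the 23 tested complement genes, 18 were higher in Vehicle at an adjusted p under 0.05 (edgeR quasi-likelihood test, Benjamini-Hochberg adjustment over all 14421 genes tested). The share of all tested genes called higher was 26.9%, and 54.0% were called in either direction. None was called lower by edgeR, where 1 gene, C8g, had an unadjusted p under 0.05 (29.7% of all genes did so, lower) and DESeq2 called that gene; 27.1% of all genes were called lower by edgeR. At least 2-fold rises were called for 13 of the 23, against 7.69% of all genes tested. In 14 of the 23 every Vehicle library lay above every Normal Control library, which held for 11.6% of all genes. The list was chosen with earlier results of these data known, so these shares only describe it. The median log2 fold change was 1.07 over the complement genes and -0.01 over all genes. By role, 8 of 8 tested genes of the classical pathway, 5 of 5 receptors and C3 itself rose. So did 2 of 3 alternative pathway genes, 1 of 2 lectin proteases and 2 of 4 regulators, and of the terminal group neither C8g nor Clu passed. Serping1 is counted in both the classical pathway and the regulators, and Clu in both the terminal group and the regulators.

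**Figure D2:**
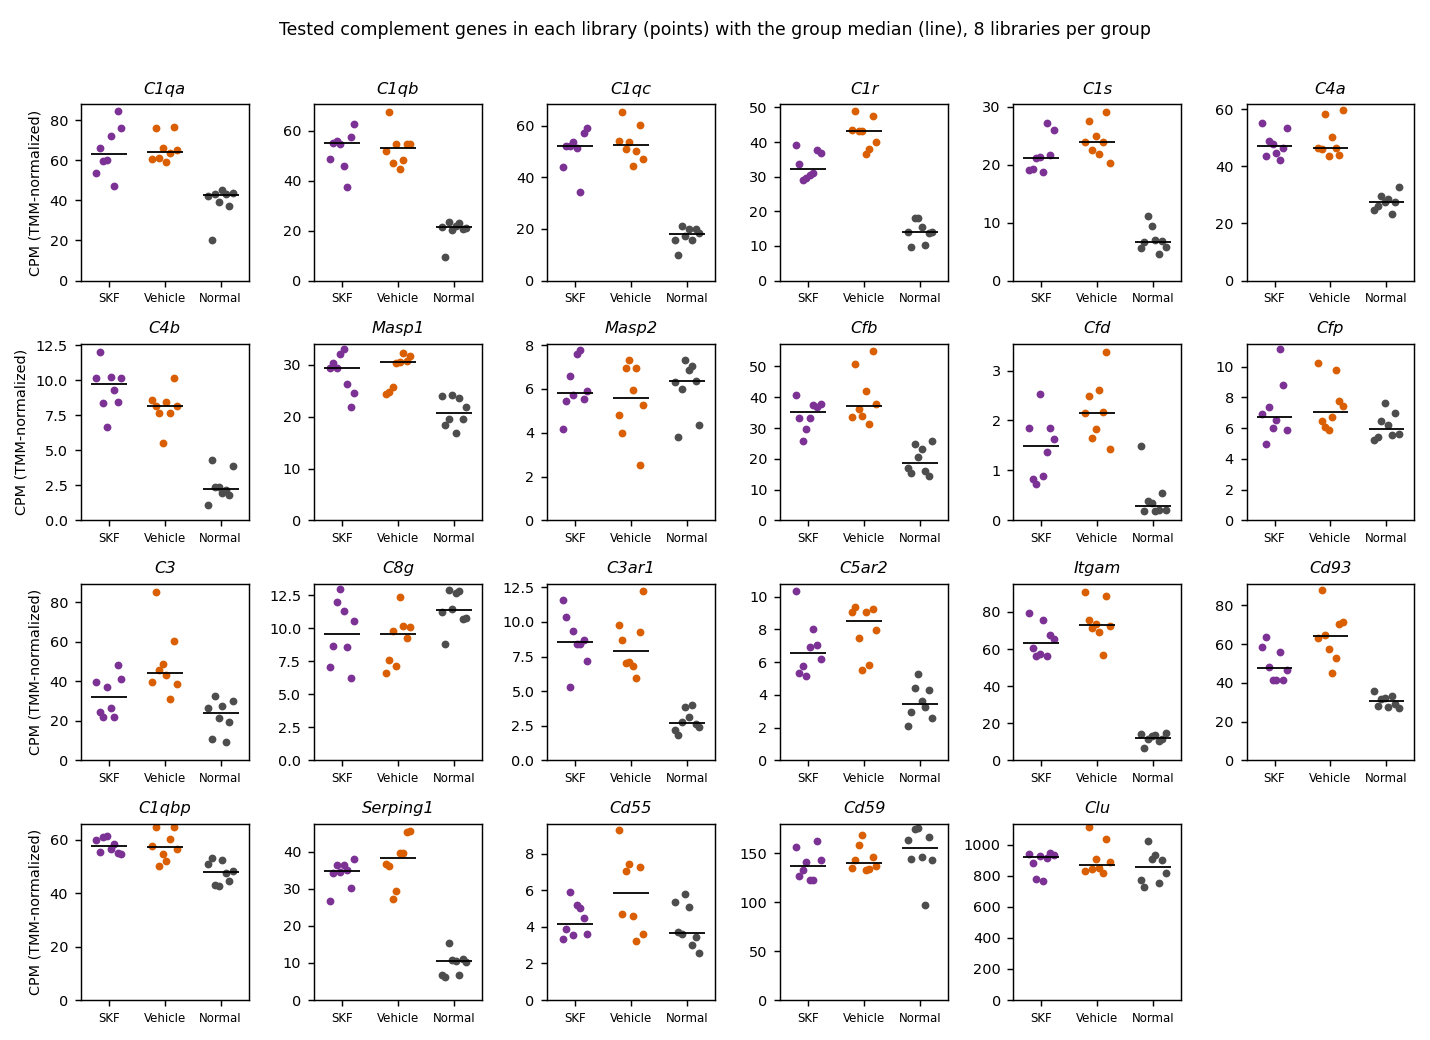
TMM-normalized CPM of the 23 tested complement genes in every library (points) with the group median (line), SKF, Vehicle and Normal Control from left to right. Itgam, Serping1, C1r and C1qc show no overlap between Vehicle and Normal Control, whereas Clu, Cd59 and Masp2 occupy the same range in all groups.

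In bulk tissue, more cells of a type and more RNA per cell cannot be told apart, and markers of several cell types differed between these groups. Markers of monocytes and blood-derived or border macrophages (11 of 12 listed were in the table) summed to 219 to 322 CPM in Vehicle and 31.3 to 42.4 CPM in Normal Control, and 9 of 10 tested rose. Neutrophil markers (12 listed) summed to 60.1 to 144 CPM in Vehicle and 4.23 to 9.36 CPM in Normal Control, where Elane was at 0, and 6 of 6 tested rose. Reactive astrocyte markers (9 listed, Serpina3n at 0 throughout) summed to 3568 to 5279 CPM in Vehicle and 479 to 944 CPM in Normal Control, and 8 of 8 tested rose. Homeostatic microglia markers moved less and the other way: they summed to 252 to 378 CPM in Vehicle and 285 to 354 CPM in Normal Control, with 1 of 8 tested higher, 4 lower and Siglech at 0 in Normal Control. Liver markers were near 0, at 3.06 to 5.96 CPM in Vehicle and 3.66 to 8.02 CPM in Normal Control summed over 6 genes. Oligodendrocyte markers summed to a median of 10323 CPM in Vehicle and 18461.5 CPM in Normal Control, and 5 of 5 tested were lower. For homeostatic astrocytes the medians were 1634 CPM in Vehicle and 2556 CPM in Normal Control, with 7 of 7 lower. Neuron markers had medians of 3876 CPM in Vehicle and 4389 CPM in Normal Control, with 4 of 7 lower and 0 higher. The part of these cell types in the rise of the complement genes was not tested.

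The chains of C1q, the recognition molecule of the classical pathway, rose by unequal amounts. C1qa had 59.4, 64.3 and 76.8 CPM in Vehicle (lowest, median and highest library) and 20.2, 42.5 and 45.2 CPM in Normal Control. C1qb had 44.6, 53.1 and 67.6 CPM in Vehicle and 9.56, 21.3 and 23.5 CPM in Normal Control. C1qc had 44.5, 52.5 and 65.5 CPM in Vehicle and 9.85, 17.9 and 21.0 CPM in Normal Control. No Vehicle library reached down to the Normal Control range in any of the chains. The log2 fold change was 0.75 ± 0.13 (SE) for C1qa, 1.39 ± 0.13 for C1qb and 1.63 ± 0.12 for C1qc, with adjusted p of 1.56e-05, 1.09e-09 and 1.53e-11 in the edgeR fit. Their genes are consecutive on rat chromosome 5 in the order C1qb, C1qc, C1qa, by the RefSeq annotation of GRCr8.

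Promoter windows of C1qa and C1qb, 300 bases each (250 before and 50 after the transcript start, RefSeq, GRCr8, written 5′ to 3′ in the direction of transcription), are shown because the chains did not rise alike. Capitals mark matches, on either strand, to the short motifs searched. C1qa lies at chr5:154419884-154420183 on the minus strand, and its capitals mark a STAT-type motif, TTCNNNGAA. C1qb lies at chr5:154407778-154408077 on the minus strand. Its capitals mark, in order from the 5′ end, a PU.1-type motif (GAGGAA), overlapping NF-kB-type matches (GGGANNNNCC) on both strands, a second PU.1-type motif read from the other strand, and another NF-kB-type match just after the start.
C1qa promoter: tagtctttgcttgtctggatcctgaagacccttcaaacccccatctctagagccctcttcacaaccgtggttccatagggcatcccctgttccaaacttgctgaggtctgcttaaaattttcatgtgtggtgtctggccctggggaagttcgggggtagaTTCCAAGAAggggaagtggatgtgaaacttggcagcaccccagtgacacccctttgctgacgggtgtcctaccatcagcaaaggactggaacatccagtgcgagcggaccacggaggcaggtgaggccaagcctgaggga
C1qb promoter: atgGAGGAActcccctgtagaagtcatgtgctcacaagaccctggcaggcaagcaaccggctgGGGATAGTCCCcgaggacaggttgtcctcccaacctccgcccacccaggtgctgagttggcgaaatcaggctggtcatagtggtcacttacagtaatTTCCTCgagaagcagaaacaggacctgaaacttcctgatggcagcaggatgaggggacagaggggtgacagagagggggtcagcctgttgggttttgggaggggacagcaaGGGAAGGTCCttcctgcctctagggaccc
The STAT-type motif was present in 8.87% of the 33469 promoter windows of the table, the NF-kB-type in 19.3% and the PU.1-type in 27.6%. A match is only a string of letters in the window and is not evidence of binding. The window of C1qc, the chain that rose most, is not shown. The part of these motifs in the unequal rise was not tested.

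Within a library the ratio of the counts of 2 chains does not depend on how the library is scaled. C1qb reads amounted to 0.711, 0.797 and 0.888 times the C1qa reads in Vehicle, and 0.474, 0.512 and 0.547 times in Normal Control. For C1qc over C1qa the ratio was 0.727, 0.804 and 0.892 in Vehicle and 0.365, 0.443 and 0.540 in Normal Control. Neither ratio overlapped between the groups. The log2 ratio differed by 0.64 for C1qb over C1qa and by 0.87 for C1qc over C1qa (exact permutation test, two-sided, adjusted p = 0.000466 for each over 12 ratio comparisons, 8 against 8). The unadjusted p of both, 0.000155, is the smallest this design can give. These ratios were chosen after the values had been seen. The C1qb ratio of 0.474 belonged to Normal Control 2, the library with the lowest level of all C1q chains.

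**Figure D3:**
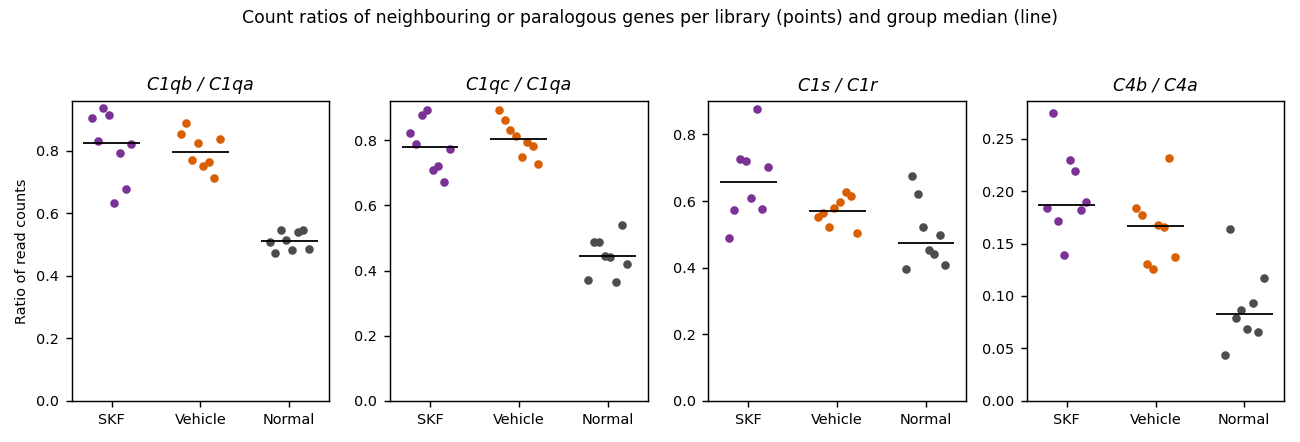
Ratio of read counts in each library (points) with the group median (line) for C1qb over C1qa, C1qc over C1qa, C1s over C1r and C4b over C4a, in SKF, Vehicle and Normal Control. The first and second panels show Normal Control ratios below 0.55 and no library of the other groups in that range.

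C1r and C1s, the proteases carried by C1q, both rose. C1r had 36.5, 43.1 and 48.9 CPM in Vehicle and 9.75, 14.0 and 18.0 CPM in Normal Control, a log2 fold change of 1.59 ± 0.11 (adjusted p = 1.2e-12, edgeR). C1s had 20.3, 23.9 and 29.2 CPM in Vehicle and 4.55, 6.70 and 11.2 CPM in Normal Control, a log2 fold change of 1.77 ± 0.13 (adjusted p = 1.43e-11, edgeR). They lie next to each other on chromosome 4, and the difference of their log2 count ratio, 0.20, had an adjusted p of 0.104 in the exact permutation test. It passed without Normal Control 2 (0.26, adjusted p = 0.0186) or Normal Control 3 (0.25, adjusted p = 0.0485) in that test. Serping1 encodes C1 inhibitor, the serpin that inactivates C1r and C1s. It had 27.4, 38.2 and 45.5 CPM in Vehicle and 6.22, 10.4 and 15.3 CPM in Normal Control, a log2 fold change of 1.94 ± 0.15 or 3.84-fold (adjusted p = 1.97e-11, edgeR).

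C4 is the substrate of C1s. C4a had 43.8, 46.5 and 59.9 CPM in Vehicle and 23.3, 27.6 and 32.8 CPM in Normal Control, and rose by 0.84 ± 0.08 on the log2 scale (adjusted p = 8.23e-10, edgeR). C4b had 5.49, 8.19 and 10.2 CPM in Vehicle and 1.09, 2.26 and 4.30 CPM in Normal Control, and rose by 1.69 ± 0.19 (adjusted p = 2.33e-08, edgeR). Groups did not overlap for either gene. The log2 ratio of C4b to C4a reads was 0.93 higher in Vehicle (exact permutation test, adjusted p = 0.00218). RefSeq lists C4b also as another name of C4a, and reads of such near-identical genes may be split or dropped in counting, so the levels of both and their ratio are uncertain.

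The remaining proteases gave a mixed picture. Masp1, a lectin pathway protease, had 24.3, 30.5 and 32.4 CPM in Vehicle and 16.8, 20.8 and 24.3 CPM in Normal Control, a log2 fold change of 0.46 ± 0.09 (adjusted p = 0.000151, edgeR), the lowest Vehicle library lying just above the highest Normal Control library. Masp2, the protease that cuts C4 and C2 in that pathway, had 2.52, 5.60 and 7.32 CPM in Vehicle and 3.82, 6.34 and 7.32 CPM in Normal Control, with adjusted p = 0.547. Each overlaps another gene in the annotation (Rtp4 for Masp1, Tardbp for Masp2), and the sources used here do not say whether counting used strand. C1r, C5ar2 and Clu also overlap other annotated genes, so the same limit holds for them. Factor B (Cfb), the catalytic part of the alternative C3 convertase, had 31.4, 37.1 and 55.2 CPM in Vehicle and 14.4, 18.8 and 25.9 CPM in Normal Control. It rose by 1.03 ± 0.13 on the log2 scale (adjusted p = 3.75e-07, edgeR), without overlap of the groups. Factor D (Cfd), which activates factor B, had 1.42, 2.16 and 3.37 CPM in Vehicle and 0.185, 0.279 and 1.48 CPM in Normal Control. Its log2 fold change was 2.29 ± 0.37 (adjusted p = 6.82e-06, edgeR) on 2 to 36 reads a library over both groups, and 2.84 without Normal Control 1, which held the highest value of its group. Properdin (Cfp), which stabilizes that convertase, had 5.90, 7.07 and 10.2 CPM in Vehicle and 5.24, 5.92 and 7.66 CPM in Normal Control, with adjusted p = 0.107. On the log2(TPM + 1) scale Cfp passed, at 0.37 (limma, adjusted p = 0.0237).

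C3, on which all pathways converge, had a larger standard error than any gene of the classical pathway. It had 31.2, 44.3 and 85.3 CPM in Vehicle and 9.22, 23.9 and 32.7 CPM in Normal Control, so the lowest Vehicle library fell within the Normal Control range. The log2 fold change was 1.14 ± 0.25 (adjusted p = 0.000552, edgeR). The highest value belonged to Vehicle 2, and the lowest to Normal Control 6 with 9.22 CPM and Normal Control 2 with 10.5 CPM. Choroid plexus markers summed to 1040 to 4010 CPM in Vehicle and 6.505 to 3918 CPM in Normal Control, with 0 of 6 passing. Vehicle 2 held the highest of these sums and Normal Control 6 the lowest of its group, as for C3, and their part in the C3 values was not tested. C3 rose in Vehicle under all 35 alternative settings or left-out libraries, by 0.98 to 1.33. Its promoter window, chr9:2201290-2201589 on the minus strand of GRCr8, is shown because every pathway meets at C3. Capitals mark a C/EBP-type motif, TTGCNNAA, and a NF-kB-type motif.
C3 promoter: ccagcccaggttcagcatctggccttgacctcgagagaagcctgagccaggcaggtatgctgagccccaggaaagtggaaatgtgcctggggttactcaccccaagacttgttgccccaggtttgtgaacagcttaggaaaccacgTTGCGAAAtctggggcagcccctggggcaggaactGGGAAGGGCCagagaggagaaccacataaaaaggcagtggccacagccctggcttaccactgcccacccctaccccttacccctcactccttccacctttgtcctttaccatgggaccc
The C/EBP-type motif was in 10.6% of all promoter windows. Over the 22 complement genes whose promoter was in the table, it was found in 7, the NF-kB-type in 6 and the PU.1-type in 6. The STAT-type was found in 5, an interferon-response-type motif (GAAANNGAAA, 3.92% of all windows) in 0 and TATAAA (14.2% of all windows) in 1. C4bpa, C6, C8a and C8b, with few or no reads here, were among the 7 with the C/EBP-type motif. Of the 22 genes, 13 were called higher in Vehicle. In these 13 the C/EBP-type was in 3, the NF-kB-type in 6, the PU.1-type in 5 and the STAT-type in 3. Whether any motif is more frequent in these genes was not tested.

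Reads of the terminal components other than C8g were scarce in every group. C8g, the gamma chain of C8, was the only component of the membrane attack complex to pass the filter, with 6.64, 9.53 and 12.4 CPM in Vehicle and 8.80, 11.4 and 12.9 CPM in Normal Control. Its log2 fold change of -0.32 ± 0.14 did not pass in edgeR (adjusted p = 0.0587). C8a, which encodes the chain that joins the gamma chain in the protein, had 0 reads in all 24 libraries. C8b had 2 reads in SKF, 2 in Vehicle and 4 in Normal Control, summed over 8 libraries each, and C9 had 1 in SKF, 0 in Vehicle and 1 in Normal Control. C5 had 2 reads in SKF, 6 in Vehicle and 13 in Normal Control. C6 had 44 reads in SKF, of which 23 came from 1 library, 61 in Vehicle and 25 in Normal Control. The counts of C5, C8a, C8b and C9 stayed at or below 3 in each SKF and Vehicle library, a level at which a difference was not detectable at this depth.

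All 5 tested receptors rose. Itgam, the alpha chain of complement receptor 3, had the largest log2 fold change of the 23 genes, except without Normal Control 1, where that of Cfd was larger. It had 56.5, 73.0 and 90.8 CPM in Vehicle and 6.60, 12.2 and 14.6 CPM in Normal Control, a log2 fold change of 2.65 ± 0.12 or 6.30-fold (adjusted p = 1.39e-15, edgeR). C3ar1, the receptor of the fragment C3a, had 5.96, 7.90 and 12.2 CPM in Vehicle and 1.82, 2.69 and 4.01 CPM in Normal Control, a log2 fold change of 1.56 ± 0.18 (adjusted p = 3.35e-08, edgeR). C5ar2, a second receptor of C5a, had 5.49, 8.52 and 9.38 CPM in Vehicle and 2.08, 3.43 and 5.28 CPM in Normal Control, and rose by 1.15 ± 0.18 (adjusted p = 3.98e-06, edgeR). Both bind anaphylatoxins, the small fragments split off C3 and C5; C5 itself had the few reads given above. Cd93, a C-type lectin once named as a C1q receptor and found on endothelium and myeloid cells, had 44.9, 64.0 and 88.0 CPM in Vehicle and 27.0, 30.3 and 35.6 CPM in Normal Control, and rose by 1.07 ± 0.11 (adjusted p = 9.44e-09, edgeR). Endothelial markers summed to 149 to 202 CPM in Vehicle and 126 to 172 CPM in Normal Control, with 3 of 6 higher and 1 lower, and their part in the rise of Cd93 was not tested. C1qbp, a mostly mitochondrial protein that binds C1q, rose by 0.27 ± 0.06 (adjusted p = 0.000464, edgeR), with 50.2, 57.2 and 64.7 CPM in Vehicle and 42.6, 47.9 and 53.0 CPM in Normal Control. Vsig4, the complement receptor of resident macrophages, had 9 reads in SKF, 7 in Vehicle and 0 in Normal Control, no more than 4 in any library, and no fold is given. The promoter window of Itgam, chr1:192089342-192089641 on the plus strand of GRCr8, is shown for the largest rise. Capitals mark, from the 5′ end, a C/EBP-type match on the other strand, a PU.1-type motif, a STAT-type motif and a PU.1-type match on the other strand.
Itgam promoter: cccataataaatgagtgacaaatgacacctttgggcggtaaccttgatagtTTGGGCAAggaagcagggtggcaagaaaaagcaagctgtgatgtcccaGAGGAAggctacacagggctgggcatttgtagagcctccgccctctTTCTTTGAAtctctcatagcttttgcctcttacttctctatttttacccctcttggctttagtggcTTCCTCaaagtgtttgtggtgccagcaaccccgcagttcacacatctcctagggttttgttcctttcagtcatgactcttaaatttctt

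Membrane and fluid regulators did not move as one. Cd55, which dissociates C3 convertases on the cell surface, had 3.25, 5.86 and 9.30 CPM in Vehicle and 2.57, 3.68 and 5.79 CPM in Normal Control. Its log2 fold change was 0.53 ± 0.21 (adjusted p = 0.0340, edgeR), and the groups overlapped. The call was lost in a fit on the 2 groups alone (adjusted p = 0.0559) and without Normal Control 2, 3, 6, 7 or 8 or Vehicle 1, 3, 4 or 7, where the log2 fold change was 0.40 to 0.51. Cd59, the membrane inhibitor of the attack complex, had 133, 139.6 and 169 CPM in Vehicle and 97.2, 155 and 176 CPM in Normal Control, with a log2 fold change of -0.07 ± 0.09 (adjusted p = 0.534, edgeR). Clu had 819, 869 and 1113 CPM in Vehicle and 724, 859 and 1021 CPM in Normal Control, with a log2 fold change of 0.09 ± 0.08 (adjusted p = 0.306, edgeR). On the log2(TPM + 1) scale Clu passed at 0.22 (limma, adjusted p = 0.0210); on that scale the median of all genes was shifted by 0.11 and 5476 genes were called higher against 2408 lower, where edgeR called 3879 higher and 3904 lower. Factor I (Cfi), which degrades C3b and C4b, had 74 reads in SKF, 52 in Vehicle and 36 in Normal Control, and C4bpa, a chain of its cofactor C4b-binding protein, had 19 in SKF, 12 in Vehicle and 10 in Normal Control.

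SKF against Normal Control compares wounded, agonist-treated brain with brain without the wound. Of the 23 genes, 16 were higher in SKF, against 25.5% of all tested genes (50.2% in either direction), and 9 rose at least 2-fold, against 6.74%. None was called lower by edgeR, with 0 at an unadjusted p under 0.05 and 0 by DESeq2, while voom called 1 (Cd59). Of all genes, 24.7% were called lower by edgeR and 27.6% were lower at an unadjusted p under 0.05. The median log2 fold change was 0.79 over the complement genes and -0.01 over all genes, and the libraries of 12 genes did not overlap (11.5% of all genes). This comparison shares its Normal Control libraries with the one above, so the counts of the 2 comparisons are not independent. Without Normal Control 4 and 6 together, 18 genes were called higher in Vehicle and 16 in SKF, and Cd59 was called lower in SKF, at -0.18 (adjusted p = 0.0466, edgeR).

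The largest rise was again that of Itgam, with 56.3, 63.1 and 79.6 CPM in SKF and 6.60, 12.2 and 14.6 CPM in Normal Control, a log2 fold change of 2.45 ± 0.12 (adjusted p = 8.03e-15, edgeR). C4b had a log2 fold change of 1.92 ± 0.19 (adjusted p = 2.53e-09, edgeR), with 6.64, 9.73 and 12.0 CPM in SKF and 1.09, 2.26 and 4.30 CPM in Normal Control. Serping1 had 26.8, 34.7 and 37.9 CPM in SKF and 6.22, 10.4 and 15.3 CPM in Normal Control, a log2 fold change of 1.80 ± 0.15 (adjusted p = 1.04e-10, edgeR). Among the C1q chains the order was the same, with log2 fold changes of 0.73 ± 0.13 for C1qa, 1.37 ± 0.13 for C1qb and 1.54 ± 0.12 for C1qc (edgeR, adjusted p = 2.71e-05, 1.64e-09 and 5.17e-11). C1qb reads were 0.632, 0.826 and 0.936 times the C1qa reads in SKF, against 0.474, 0.512 and 0.547 in Normal Control, a log2 difference of 0.66 (exact permutation test, adjusted p = 0.000466). The log2 ratio of C1qc to C1qa was 0.82 higher in SKF, at the same adjusted p, and that of C4b to C4a 1.20 higher (exact permutation test, adjusted p = 0.000746). The ratio of C1s to C1r was 0.39 higher in SKF on the log2 scale (exact permutation test, adjusted p = 0.0245), and 0.38 without Normal Control 4 and 6 (adjusted p = 0.0582).

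The remaining rises in SKF ranged widely in size. Factor D had a log2 fold change of 1.69 ± 0.38, C1s of 1.61 ± 0.13, C3ar1 of 1.60 ± 0.18 and C1r of 1.24 ± 0.11 over Normal Control. C3ar1 had 5.29, 8.55 and 11.6 CPM in SKF and 1.82, 2.69 and 4.01 CPM in Normal Control, with no overlap. Smaller rises were those of C5ar2 at 0.94 ± 0.18, factor B at 0.81 ± 0.13, C4a at 0.79 ± 0.08 and Cd93 at 0.70 ± 0.11. Masp1 rose by 0.43 ± 0.09 and C1qbp by 0.27 ± 0.06. C1qbp had 54.4, 57.4 and 61.2 CPM in SKF and 42.6, 47.9 and 53.0 CPM in Normal Control, so even this small rise separated all SKF from all Normal Control libraries. The adjusted p of these 10 genes was at most 0.000475 in edgeR. Not passing, besides C3 and Cd55, were Cfp at 0.23 ± 0.15, Clu at 0.05 ± 0.08, Masp2 at 0.02 ± 0.18, Cd59 at -0.13 ± 0.09 and C8g at -0.24 ± 0.14.

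Genes called higher in Vehicle that did not pass in SKF were C3 and Cd55. C3 had 21.7, 31.9 and 48.0 CPM in SKF and 9.22, 23.9 and 32.7 CPM in Normal Control, a log2 fold change of 0.55 ± 0.25 (adjusted p = 0.0748, edgeR). It passed without Normal Control 3 (0.65, adjusted p = 0.0423) and on the log2(TPM + 1) scale (limma, 0.66, adjusted p = 0.0223), where all genes together gave 4996 higher and 2296 lower calls. Leaving out some other libraries made the C3 rise larger, to 0.62 without Normal Control 8 (adjusted p = 0.0565, edgeR). Leaving out others made the rise smaller. In edgeR it was 0.41 without Normal Control 4 and 6 together (adjusted p = 0.199). It was 0.44 without Normal Control 6 alone (adjusted p = 0.136, edgeR) and 0.45 without Normal Control 2 (adjusted p = 0.138, edgeR). Cd55 had 3.36, 4.18 and 5.93 CPM in SKF and 2.57, 3.68 and 5.79 CPM in Normal Control, a log2 fold change of 0.10 ± 0.21 (adjusted p = 0.713, edgeR). Whether SKF and Vehicle differ in these genes is the comparison that follows, and neither passed there.

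**Figure D4:**
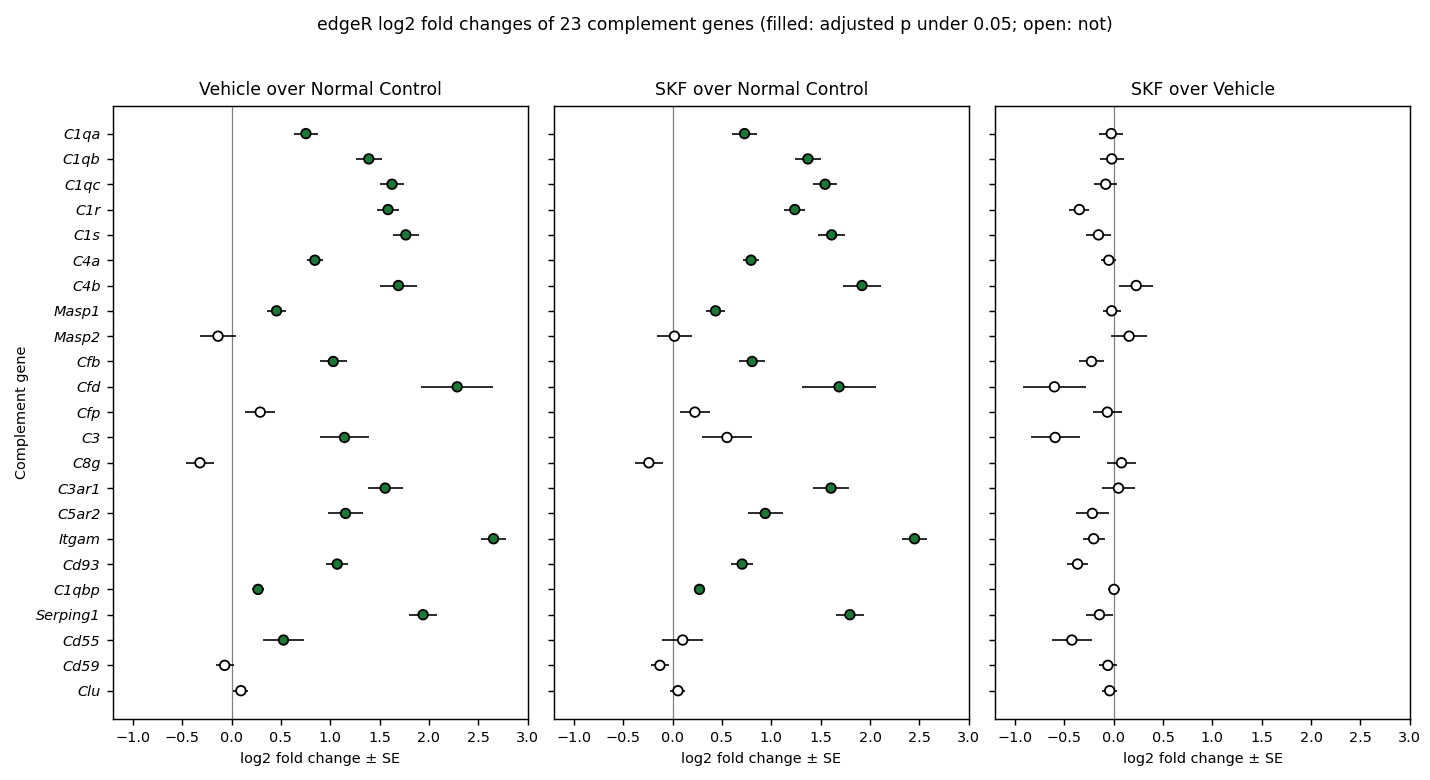
edgeR log2 fold changes (points) with their SE (bars) of the 23 tested complement genes for Vehicle over Normal Control, SKF over Normal Control and SKF over Vehicle; filled points have an adjusted p under 0.05. The left and middle panels hold 18 and 16 filled points, all to the right of 0, and the right panel holds none.

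SKF against Vehicle asks whether the D1-like agonist changed complement expression in the wounded brain. None of the 23 genes passed, and none of the 14421 genes did (edgeR, lowest adjusted p among the complement genes 0.719). At an unadjusted p under 0.05 there were 4 complement genes, all lower in SKF, against 4.96% of all genes in either direction and 2.82% lower. DESeq2 called 6 genes in all, none of them a complement gene, and gave 4 complement genes an unadjusted p under 0.05. Over the 35 alternatives this number was 3 to 6. The log2 fold change was negative for 18 of the 23, against 49.5% of all genes, with a median of -0.06 over the complement genes and 0.00 over all genes.

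The 4 genes were C1r, Cd93, C3 and Cd55. C1r had 29.0, 32.3 and 39.2 CPM in SKF and 36.5, 43.1 and 48.9 CPM in Vehicle; 5 of 8 SKF libraries lay below every Vehicle library and 0 above the Vehicle median. Its log2 fold change was -0.35 ± 0.10, with a 95% interval of -0.56 to -0.14, an unadjusted p of 0.0019 and an adjusted p of 0.719 in edgeR. Cd93 had 41.4, 47.6 and 63.8 CPM in SKF and 44.9, 64.0 and 88.0 CPM in Vehicle, a log2 fold change of -0.37 ± 0.11 with an interval of -0.60 to -0.14 (edgeR, unadjusted p = 0.00264, adjusted p = 0.767). For this gene too 0 of 8 SKF libraries exceeded the Vehicle median. C3 had 21.7, 31.9 and 48.0 CPM in SKF and 31.2, 44.3 and 85.3 CPM in Vehicle, a log2 fold change of -0.59 ± 0.25 with an interval of -1.11 to -0.08 (edgeR, unadjusted p = 0.0251, adjusted p = 0.937). Vehicle 2 held the highest C3 value, and without it the log2 fold change was -0.43. Cd55 had 3.36, 4.18 and 5.93 CPM in SKF and 3.25, 5.86 and 9.30 CPM in Vehicle, a log2 fold change of -0.42 ± 0.21 (edgeR, unadjusted p = 0.0492, adjusted p = 0.937). All 4 failed the correction for the number of genes tested.

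The C1q chains lay close to 0 in this comparison, while Cfd, of the alternative pathway, had the lowest log2 fold change of the tested genes. C1qa had 47.3, 63.1 and 84.7 CPM in SKF and 59.4, 64.3 and 76.8 CPM in Vehicle, and the interval of its log2 fold change was -0.28 to 0.23. For C1qb the interval was -0.28 to 0.24 and for C1qc -0.32 to 0.16 (95% intervals on the log2 scale). Itgam had 56.3, 63.1 and 79.6 CPM in SKF and 56.5, 73.0 and 90.8 CPM in Vehicle, with an interval of -0.43 to 0.03. Cfd had 0.730, 1.5 and 2.53 CPM in SKF and 1.42, 2.16 and 3.37 CPM in Vehicle, a log2 fold change of -0.60 ± 0.31 with an interval of -1.26 to 0.05. C4b went the other way, with 6.64, 9.73 and 12.0 CPM in SKF and 5.49, 8.19 and 10.2 CPM in Vehicle, and a log2 fold change of 0.23 ± 0.17. Serping1 had 26.8, 34.7 and 37.9 CPM in SKF and 27.4, 38.2 and 45.5 CPM in Vehicle, with an interval of -0.42 to 0.14, and 0 of 8 SKF libraries exceeded the Vehicle median. The other 12 tested genes, Clu among them, had log2 fold changes of -0.22 to 0.16. Clu, with 763, 922 and 946 CPM in SKF and 819, 869 and 1113 CPM in Vehicle, had an interval of -0.20 to 0.12. The log2 count ratios differed by 0.02 for C1qb over C1qa, -0.05 for C1qc over C1qa, 0.19 for C1s over C1r and 0.27 for C4b over C4a, with adjusted p of 0.845, 0.491, 0.104 and 0.104 in the exact permutation test.

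Leukocyte markers lay on the low side in the same libraries. Neutrophil markers summed to 40.1, 55.1 and 62.3 CPM in SKF and 60.1, 67.2 and 144 CPM in Vehicle, with a median log2 fold change of -0.70 over 6 tested genes, none of which passed in edgeR. Those of monocytes and macrophages summed to 166, 213 and 310 CPM in SKF and 219, 250 and 322 CPM in Vehicle, with a median of -0.26 over 10 tested genes, none passing. Homeostatic microglia markers summed to 247, 280 and 311 CPM in SKF and 252, 301 and 378 CPM in Vehicle. Reactive astrocyte markers summed to 4281, 4485 and 4854 CPM in SKF and 3568, 4464 and 5279 CPM in Vehicle, with a median log2 fold change of -0.07 over 8 genes, none passing. Choroid plexus markers summed to 297, 1395 and 2386 CPM in SKF and 1040, 1848 and 4010 CPM in Vehicle, with a median log2 fold change of -0.49 over 6 genes, none passing. Endothelial markers summed to 147, 164 and 169.7 CPM in SKF and 149, 182 and 202 CPM in Vehicle (median -0.16 over 6 genes), and those of fibroblasts and meninges to 222, 232 and 312 CPM in SKF and 240.5, 276 and 332 CPM in Vehicle (median -0.18 over 6 genes), none passing. The part of these cell types in the lower values of C1r, Cd93, C3 and Cd55 was not tested.

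Across the 16 SKF and Vehicle libraries, C1qb, C3 and Serping1 were each set against the scores of 4 marker lists, as deviations from the group means. None of the 12 relations passed (permutation test with 100000 resamples, Benjamini-Hochberg adjustment). Pearson's r ran from -0.25 to 0.37. The highest was that of C3 with homeostatic microglia, with r = 0.37 (permutation p = 0.157, adjusted p = 0.826) and Spearman's rho = 0.44 (permutation p = 0.0948, adjusted p = 0.961). Without the 2 libraries farthest from the median score r was 0.29, and it was 0.70 within SKF and 0.18 within Vehicle, 8 libraries each. Against reactive astrocytes the values within the groups had opposite signs: r was -0.71 within SKF and 0.79 within Vehicle for C1qb, and -0.54 within SKF and 0.58 within Vehicle for C3. The pooled r was 0.14 for C1qb and 0.15 for C3, and the difference between the groups was not tested.

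Of 38 further complement-related genes, 34 were in the table and 25 could be tested. In Vehicle against Normal Control 12 were higher and 9 lower, where 26.9% of all genes were called higher and 27.1% lower, and the median log2 fold change was 0.28. The largest rises were in pattern recognition molecules and a receptor chain. Ptx3, a pentraxin that binds C1q, had 7.63, 17.1 and 36.3 CPM in Vehicle and 0.0927, 0.295 and 1.58 CPM in Normal Control, a log2 fold change of 5.24 ± 0.38 (adjusted p = 3.55e-11, edgeR). Fcnb, a ficolin of the lectin pathway made by myeloid cells, had 2.75, 4.29 and 10.0 CPM in Vehicle and 0, 0.104 and 0.395 CPM in Normal Control, a log2 fold change of 4.97 ± 0.43 (adjusted p = 1.88e-10, edgeR). Itgax, the alpha chain of complement receptor 4, had 7.80, 10.3 and 20.1 CPM in Vehicle and 0.0988, 0.311 and 0.851 CPM in Normal Control, a log2 fold change of 4.87 ± 0.28 (adjusted p = 3.65e-14, edgeR). Groups did not overlap for any of these. Normal Control libraries held only 1 to 16 reads of Ptx3, 0 to 4 of Fcnb and 1 to 10 of Itgax. These genes passed the filter on low counts through the groups where they are high. The size and order of their folds are therefore uncertain, and the lack of overlap partly follows from that. Itgb2, the beta chain shared by both integrin receptors, rose by 2.14 ± 0.12 (adjusted p = 1.54e-14, edgeR), with 41.9, 45.8 and 62.6 CPM in Vehicle and 9.39, 10.3 and 14.0 CPM in Normal Control. Cr1l, a rodent membrane regulator of C3 known as Crry, rose by 0.54 ± 0.06 (adjusted p = 3.12e-08, edgeR), with 36.1, 40.9 and 48.4 CPM in Vehicle and 24.8, 28.5 and 31.2 CPM in Normal Control.

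The largest falls were those of C1ql2, Vtn and Sez6. C1ql2, a C1q-domain protein secreted at synapses, had 0.998, 2.12 and 3.14 CPM in Vehicle and 2.39, 9.95 and 18.5 CPM in Normal Control, a log2 fold change of -2.19 ± 0.31 (adjusted p = 1.26e-06, edgeR). Vtn, vitronectin, an inhibitor of the terminal complex, had 10.3, 17.2 and 23.7 CPM in Vehicle and 24.6, 29.6 and 36.7 CPM in Normal Control, and fell by 0.84 ± 0.13 on the log2 scale (adjusted p = 2.99e-06, edgeR). Sez6, a neuronal membrane protein with complement-control domains, had 123, 141 and 207 CPM in Vehicle and 209.5, 229.8 and 565 CPM in Normal Control, a log2 fold change of -0.79 ± 0.17 (adjusted p = 0.000361, edgeR). The value of 565 CPM belonged to Normal Control 6, the library apart on the second principal component. Csmd3 came next, at -0.72 ± 0.16, so the place of Sez6 among the largest falls may rest on that library. The fold change of Sez6 without it is not given here. In SKF against Normal Control 12 of these 25 genes were higher and 6 lower, against 25.5% and 24.7% of all genes, so the falls were near the background share. In SKF against Vehicle none passed in edgeR, and 1, Susd4, had an unadjusted p under 0.05, with a log2 fold change of 0.21 (adjusted p = 0.889).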

How the data were processed

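Poly(A)-selected RNA of 24 rat brain samples was sequenced with a directional kit, per the labels' protocols, and the build is mRatBN7.2, per the submitters' processing notes. The sources used here name no aligner, counter or strand setting. The authors deposited raw counts per gene and, in a separate file, TPM, which are scaled by transcript length and library size. The quasi-likelihood test of edgeR 4.0.16 (R 4.3.3) was run on the counts (TMM, filterByExpr, robust fit on all 24 libraries, Benjamini-Hochberg over 14421 genes, threshold 0.05); the biological coefficient of variation was 16.2%. CPM values are TMM-normalized. Alternatives used DESeq2 1.42.0, limma 3.58.1 (voom, or log2(TPM + 1) and log2(TPM + 0.1)), other filters and scalings, a replicate block, and each library left out. Ratios and relations were tested by permutation with NumPy 2.4.6, and SciPy 1.17.1 gave the ranks. The gene test was checked on simulated counts. All 35 complement genes were to be described, with the 3 largest rises and falls of the further genes and Itgb2 and Cr1l; 1 further gene that the rule names is not reported here; 4 planned relations with C5ar1 were not computed. Members and lists were chosen with earlier results of these data known. Promoters came from RefSeq GRCr8, whose coordinates differ from the count table's build; 22 of 35 genes matched. No libraries held identical counts. Total counts limit the precision of low genes.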

Additional observations from a re-analysis of the deposited data

Results flagged for a closer look

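Dixon's criterion for 8 values, 0.526 (the gap to the nearest library over the whole range of the group, on log2 CPM), was exceeded by 7 of 69 gene and group combinations; chance gives about 1 in 20. Normal Control 2 accounted for 4 of the 7. In it C1qa had 20.2 CPM, against 37.3 to 45.2 CPM in the other 7 libraries of its group (0.761). C1qb had 9.56 CPM there, against 20.3 to 23.5 CPM (0.834), and C1qc had 9.85 CPM, against 15.6 to 21.0 CPM (0.609). Itgam had 6.60 CPM there, against 10.2 to 14.6 CPM (0.545). The summed homeostatic microglia markers of Normal Control 2 were 285 CPM, the lowest of its group, and their part in these low values was not tested. Without this library the log2 fold change over Normal Control was 0.66 for C1qa and 1.29 for C1qb in Vehicle, and both passed in edgeR.

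C4b stood low in Vehicle 4, with 5.49 CPM against 7.64 to 10.2 CPM in the other Vehicle libraries (0.533). Cfd stood high in Normal Control 1, with 1.48 CPM against 0.185 to 0.545 CPM in the rest of the group (0.549). Cd59 stood low in Normal Control 6, the library apart on the second principal component, with 97.2 CPM against 143 to 176 CPM (0.650).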

How the results depend on the processing

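The number of complement genes called higher was 17 to 20 in Vehicle against Normal Control and 15 to 18 in SKF against Normal Control over 35 alternatives, and 0 in SKF against Vehicle under each of them; no call reversed. The number called lower in Vehicle against Normal Control was 1 (C8g) with DESeq2, with only the 2 groups compared and with the replicate block, and 0 to 1 with libraries left out in turn. In SKF against Normal Control it was 1 (Cd59) with voom and without Normal Control 4 and 6 together, and 0 to 1 with libraries left out. DESeq2 called 6 genes between SKF and Vehicle, where edgeR called 0. The cause of these moves was not tested. Without the filter on low counts Vsig4 was also called, in Vehicle and in SKF (adjusted p = 0.0339 and 0.0232, edgeR), though all Normal Control libraries were at 0, and Cfi was called in SKF against Normal Control on the unfiltered log2(TPM + 1) scale (0.35, limma, adjusted p = 0.0462). The median log2 fold change was 1.17 in Vehicle and 0.89 in SKF against Normal Control with log2(TPM + 0.1). Same-numbered libraries did not deviate together over all tested genes (correlations of -0.24 to 0.08). Such correlations could miss a weak pairing, so whether the numbers pair the samples is not known. With the replicate block 18 genes were higher and 1 lower in Vehicle, 16 higher and 0 lower in SKF against Normal Control, and 0 changed in SKF against Vehicle. Among the count ratios, C1s over C1r was also called in Vehicle without Normal Control 2 or 3 (0.26 and 0.25), and between SKF and Vehicle without SKF 1 (0.25), and C4b over C4a between SKF and Vehicle without Vehicle 7 or SKF 4 (0.34 each). Depth limits C5, C8a, C8b, C9 and Vsig4, with at most 7 reads in any library.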
